A study of Mus musculus with 8 samples.

Results

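Hematopoietic stem cells from old mice were ranked within each library by the share of their transcripts that came from the mitochondrial genome, and the cells with a high share were compared with the cells with a low share. The cells were long-term hematopoietic stem cells (LT-HSC), untreated and sorted from the pooled leg, hip and spine marrow of wild-type male C57BL/6J mice aged 18 months. All were Lin-, CD150+, CD48-, CD34-, Kit+ and Sca1+, and were further sorted as Dlk1+ or Dlk1-, 4 libraries each. Dlk1 is a surface protein of the Notch ligand family. Single-cell RNA was read with mCEL-Seq2, a plate method that tags polyadenylated RNA by well, and each molecule by a unique molecular identifier (UMI). The labels tie no library to an animal, so the p-values below measure only a spread between libraries, which may be technical. For cells with a high against a low share it is the spread of the differences found within each library. The gene tests weight that spread by counts and pool it in part over genes.

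The groups were chosen by measured values. The score of a cell was the percentage of its transcripts from the 15 detected genes whose symbols start with mt-, with the satellite-like transcripts Gm10800 and Gm26870 taken out of the total. Of 1536 barcodes in the tables, 728 were used as wells of the sorted group and 499 of these held at least 2000 transcripts. A library needed 20 such cells, which 7 of the 8 met, with 495 cells in all. The library left out, Dlk1+ replicate 3, had 4 cells, with shares from 11.03% to 24.4%. The cells of each library were split by score into tertiles, 3 parts of like size. The top tertile held 162 cells and the bottom tertile 162, between 8 and 31 cells a library on each side, and the remaining 171 formed the middle tertile. The table names place replicates 1 and 2 on plate 5, and replicates 3 and 4 on plate 6, for Dlk1+ as for Dlk1-.

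The mitochondrial genome encodes core subunits of respiratory complexes I, III and IV and of ATP synthase, with the 2 ribosomal RNAs of the organelle. All other subunits are encoded in the nucleus and imported. Resting stem cells of the marrow are known for low oxidative metabolism and reliance on glycolysis, and they raise mitochondrial activity when they enter the cell cycle. In single-cell data a high mitochondrial share is also widely used as a sign of a damaged cell, because cytoplasmic RNA is lost from it before RNA enclosed in mitochondria.

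The share varied far more between cells than counting error allows. Its median per library was 13.3%, 11.4%, 13.9% and 12.8% in Dlk1- replicates 1 to 4 and 16.6%, 10.4% and 13.3% in Dlk1+ replicates 1, 2 and 4. The standard deviation over the cells of a library was 2.43 to 8.45 percentage points, against a binomial value of 0.487 to 0.681 at the library's median. Single cells reached 61.1% in Dlk1- replicate 3 and 51.3% in Dlk1- replicate 2. The former library stood apart, with 17 cells over 25%, while the other 6 had between 0 and 4.

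The tertiles are cuts of a score within each library, so neighbouring tertiles meet by construction. Median shares in the top tertile ran from 13.0% in Dlk1+ replicate 2 to 26.5% in Dlk1- replicate 3, with a median of 17.2% over libraries. Those of the bottom tertile ran from 9.26% in Dlk1- replicate 2 to 12.6% in Dlk1+ replicate 1, with a median of 11.1%. In Dlk1- replicate 1 the lowest cell of the top tertile had 14.95% and the highest of the middle tertile 14.66%, while the lowest of the middle tertile had 12.50% and the highest of the bottom tertile 12.40%. In Dlk1- replicate 2 the 3 highest cells of the top tertile were further apart, at 15.5%, 27.1% and 51.3%. The tertiles are ranges of a score and are not called types of cell.

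**Figure D1:**
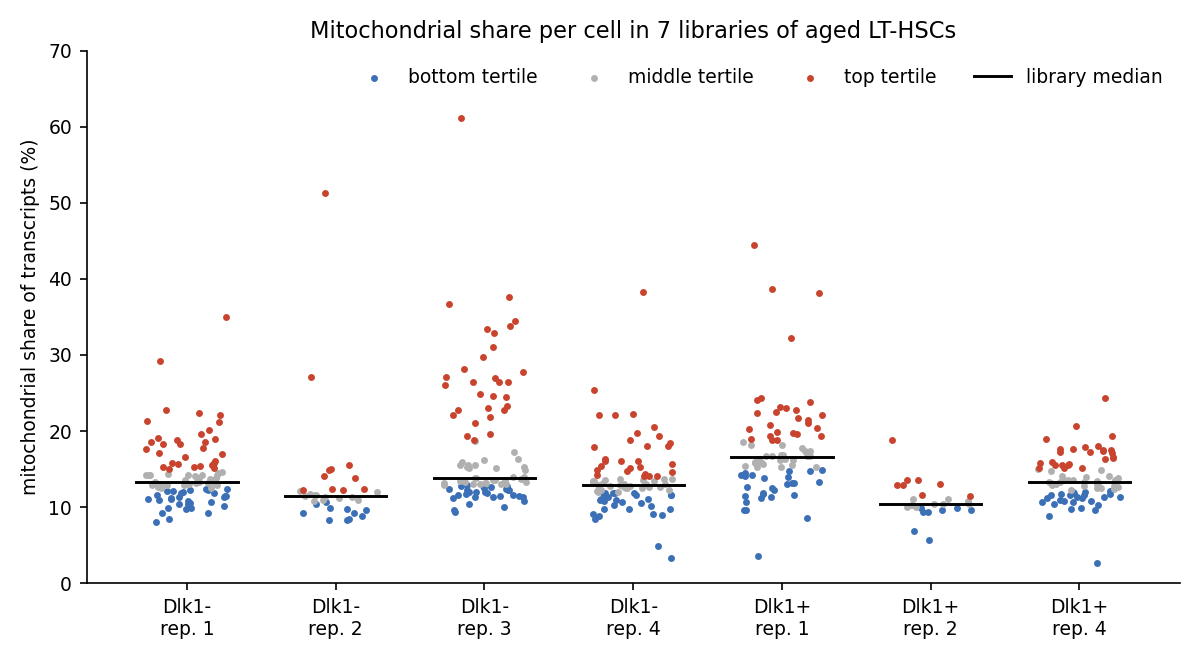
Mitochondrial share of transcripts per cell (vertical axis, %) in the 7 libraries, 1 point a cell, coloured by tertile; horizontal bars are library medians, from 10.4% to 16.6%. The upper tail is longest in Dlk1- replicate 3, where 17 cells lie over 25%.

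Both parts of the score moved. The median number of mitochondrial transcripts per cell was higher in the top than in the bottom tertile in 7 of 7 libraries, by factors of 1.18 to 1.37. The median number of other transcripts, without the satellite-like ones, was lower in the top tertile in 6 of 7 libraries, with ratios of top to bottom from 0.490 in Dlk1- replicate 3 to 0.810 in Dlk1- replicate 4. Dlk1+ replicate 2 had the only ratio above 1, at 1.06. These numbers are part of the score and are given without a test. They mean that depth differed between the tertiles in the gene comparisons that follow, except where cells of like depth were taken. Why the count of other transcripts was lower was not tested.

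For this reason each comparison was repeated with cells of like depth. Cells of a library were sorted by their other transcripts, taken in consecutive sets of 6, and split into tertiles by share within each set. In these depth strata, of 316 cells, the ratio of other transcripts was 0.983 to 1.12, with a median of 1.00. The contrast in share was smaller too, with medians over libraries of 15.95% against 11.33%.

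**Figure D2:**
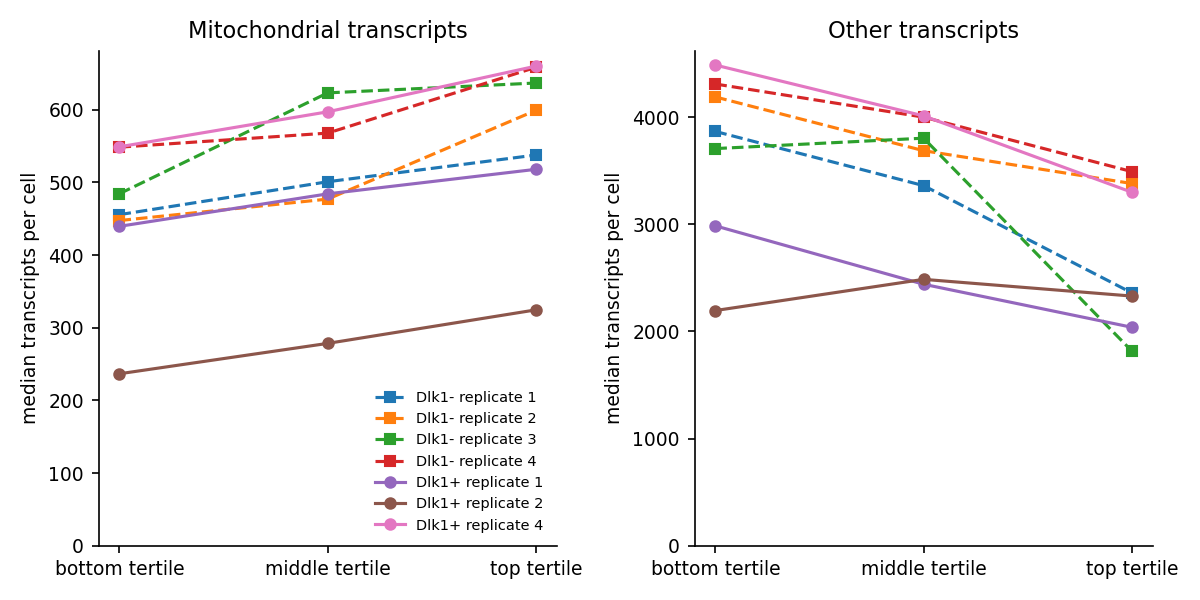
Median mitochondrial transcripts (left) and other transcripts (right) per cell in the bottom, middle and top tertile, 1 line a library. Mitochondrial transcripts are higher in the top than in the bottom tertile in 7 of 7 libraries, and other transcripts are lower in 6 of 7.

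The mitochondrial transcripts were not raised evenly. The large ribosomal RNA mt-Rnr2 made up 32.1% to 43.9% of mitochondrial transcripts in the top tertile (median 40.4%) and 23.3% to 37.2% in the bottom tertile (median 33.95%), higher in 7 of 7 libraries. The small ribosomal RNA mt-Rnr1 had medians of 8.46% and 6.02%, and mt-Nd4l, which encodes a small complex I subunit, of 1.02% and 0.690%. Both were higher in 7 of 7 libraries, and mt-Nd5 and mt-Atp8 were higher in 6 of 7. The main messenger RNAs went the other way as a share of the whole. The complex IV subunits mt-Co1 (9.02% against 10.9%), mt-Co2 (7.55% against 9.28%) and mt-Co3 (4.49% against 5.47%), the complex III subunit mt-Cytb (5.82% against 6.92%), mt-Atp6 (8.24% against 9.15%) and mt-Nd4 (4.68% against 5.14%) were lower in 7 of 7 libraries.

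Relative to other transcripts nearly all mitochondrial genes were higher, as the score requires. Per 10000 other transcripts, mt-Rnr2 had a median over libraries of 837 in the top and 422 in the bottom tertile. On the same scale mt-Co1 had 195 and 132, mt-Cytb 126.01 and 83.4, and mt-Nd1 74.9 and 44.0. The median log2 ratio of top to bottom was highest for mt-Nd4l (1.56), mt-Atp8 (1.39), mt-Rnr1 (1.32) and mt-Rnr2 (1.21) and lay between 0.57 and 0.76 for mt-Nd1, mt-Atp6, mt-Co1, mt-Co2, mt-Co3, mt-Cytb and mt-Nd4. The rare mt-Nd6, which reached at most 2.33 per 10000, was at -0.01 over the 6 libraries with transcripts on both sides. The rule used these genes, so none of these values was tested.

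**Figure D3:**
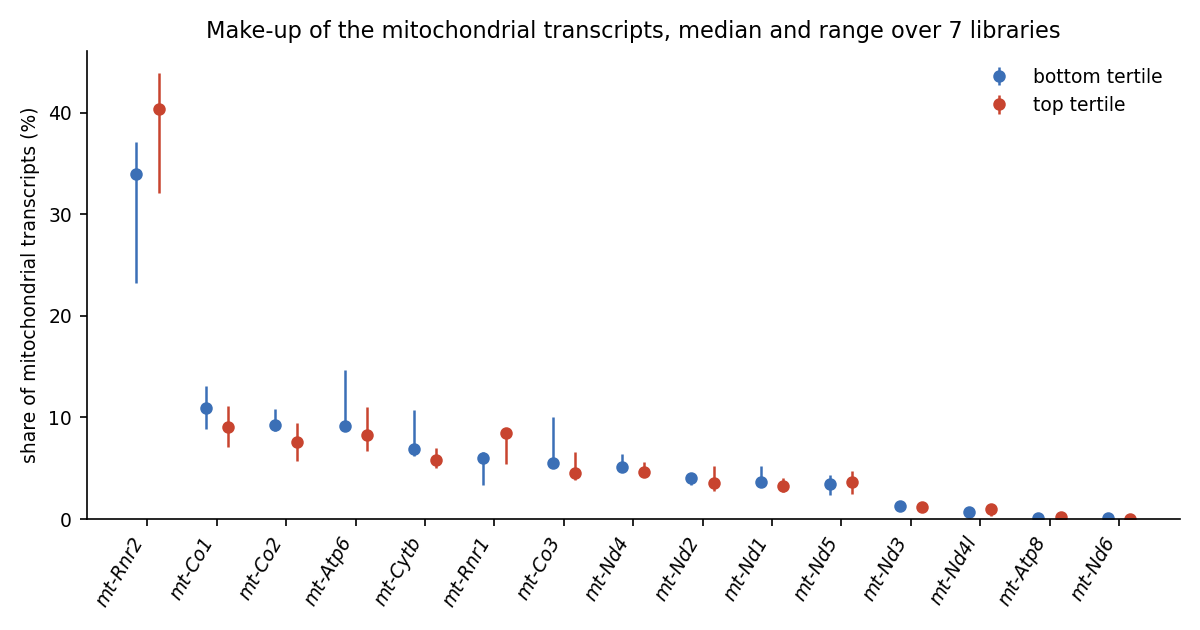
Share of all mitochondrial transcripts (vertical axis, %) taken by each of the 15 mitochondrial genes in the bottom and top tertile; points are medians and bars the range over 7 libraries. mt-Rnr2 and mt-Rnr1 take a larger share in the top tertile, and mt-Co1, mt-Co2 and mt-Cytb a smaller one.

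Genes outside the mitochondrial genome were compared on transcripts summed per library and tertile, scaled to the other transcripts of that sum and given as counts per 1000000 of these (CPM). In such sums, fewer cells of a type and less RNA per cell cannot be told apart. The test was limma-voom with the library as a block and Benjamini-Hochberg adjustment over 1503 genes, called at 0.05 and written below as the limma adjusted p. Of these genes 23 were higher in the top tertile (1.53%) and 19 were lower (1.26%). Over all tested genes the median log2 fold change was 0.03 and 53.1% were positive. These shares are the background for the counts of every gene list below. Of the 42 called genes, 28 had the same sign in every library. Over the libraries the tertiles did not overlap for 9 of the 1503 tested genes, of which 5 were called.

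Within depth strata few calls remained. Of 1763 genes tested there, 2 were higher in the top tertile (0.113%) and 0 were lower (0%), while 97 had an unadjusted p below 0.05 in limma-voom. The 2 were Malat1 and Gm42418, both also among the 42. Of the 40 called genes that could be tested in the strata, 38 kept their sign. Unweighted limma left 1 call in the strata, Malat1. The strata differ from the main comparison in depth and in the contrast in share, and the parts of these in the loss of calls were not tested. Thinning every cell to 2000 UMIs with the tertiles left as they were equalised the total of UMIs counted but not the cells' own content. Mitochondrial and satellite-like UMIs were part of the 2000, and the score makes the mitochondrial part larger in the top tertile. Depth over the other transcripts was therefore not equalised, and the values after thinning are not values at equal depth. Thinning left out 2 cells of the top and 0 of the bottom tertile. Of 484 genes tested after it, 16 were higher in the top tertile (3.31%) and 7 were lower (1.45%). Of the 42 called genes 33 were tested there, 33 kept their sign and 18 were called again, with log2 fold changes of 0.91 for Malat1, 1.23 for Gm42418, 0.80 for Junb and -0.54 for Gapdh. By plate, 1 of 878 tested genes was higher and 0 lower on plate 5 alone, against 20 and 11 of 2250 on plate 6 alone. Of the 42 called genes, all 36 tested on plate 5 and all 41 tested on plate 6 kept their sign.

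By p-value, Malat1 and Gm42418 came first among the genes that rose. Malat1, a long noncoding RNA of nuclear speckles (chr19:5795690-5802672, minus strand, mm10), ran from 4672 to 13426 CPM in the top tertile (median 8866) and from 3314 to 6087 in the bottom tertile (median 5330). It was higher in 7 of 7 libraries, although the ranges overlap. The log2 fold change was 0.89 ± 0.06 (SE; limma adjusted p = 1.16e-09). In depth strata it was 0.38 ± 0.04 (limma adjusted p = 5.4e-08), again higher in 7 of 7. It was 0.85 on plate 5 and 0.92 on plate 6.

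Gm42418 (chr17:39846958-39848788, plus strand), annotated as a long noncoding RNA within a repeat of nuclear ribosomal RNA, followed. It ran from 852 to 9451 CPM in the top tertile (median 2358) and from 452 to 3609 in the bottom tertile (median 1003). Dlk1- replicate 3 held the highest value on both sides, and the top tertile was higher in 7 of 7 libraries. The log2 fold change was 1.04 ± 0.10 (limma adjusted p = 2.49e-07) and 0.47 ± 0.07 in depth strata (limma adjusted p = 0.000247), where it was higher in 6 of 7. From the bottom to the middle tertile its log2 fold change was 0.18, and from the middle to the top tertile 0.95.

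Of all tested genes 1.53% rose. Of the 13 nuclear long noncoding RNAs listed, 6 were tested and 2 rose, Malat1 and Kcnq1ot1. The latter is the antisense RNA of an imprinted locus (chr7:143203458-143296549, minus strand). It had medians of 1067 CPM in the top and 725 in the bottom tertile and was higher in 7 of 7 libraries (log2 0.52 ± 0.12, limma adjusted p = 0.0151), with 0.13 in depth strata. Neat1, the RNA of paraspeckles, was at 0.33 with a limma adjusted p above the threshold. The list's median was 0.34, against 0.03 over all tested genes, and 0.17 in the strata. Its summed level was higher in the top tertile in 7 of 7 libraries.

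**Figure D4:**
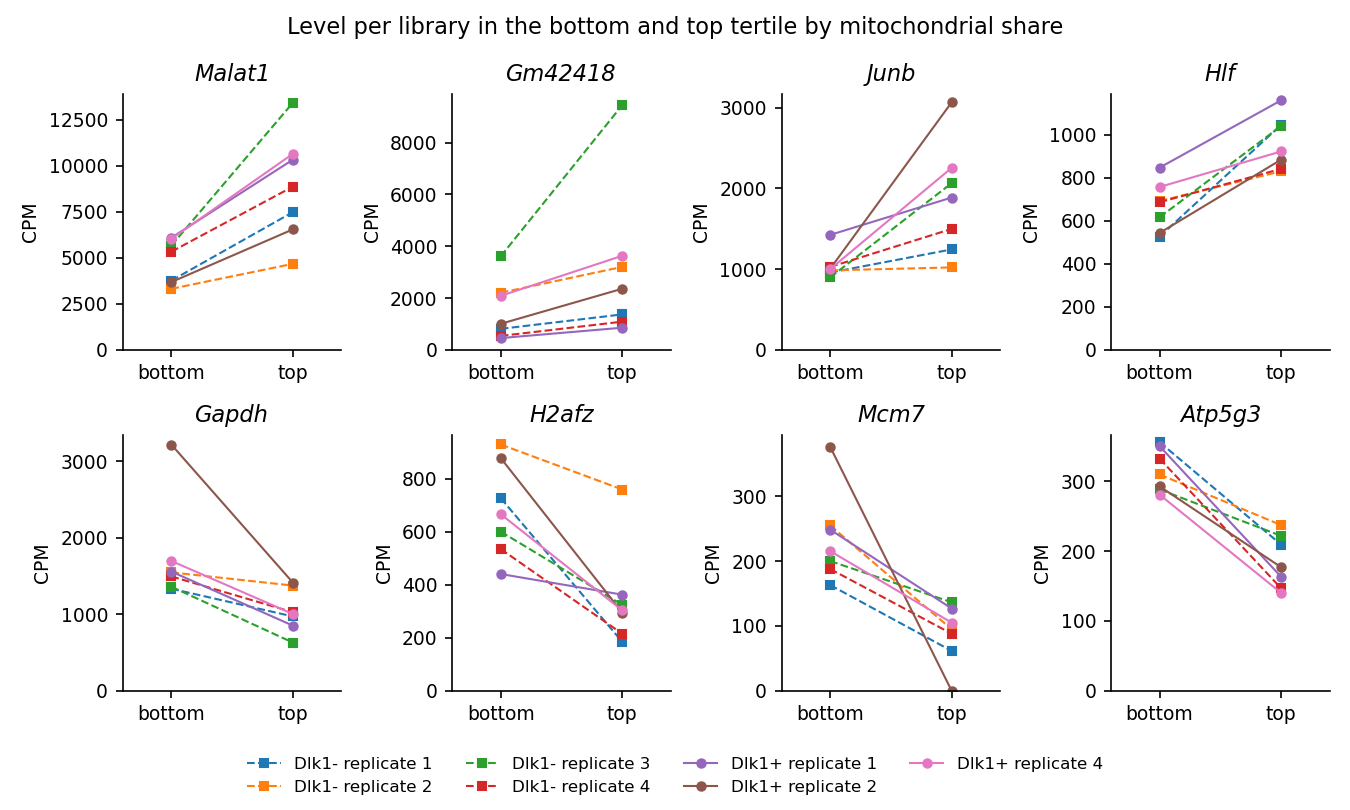
Level in CPM of 8 genes in the bottom and top tertile of each library, 1 line a library, with vertical axes from 0. Malat1, Gm42418, Junb and Hlf are higher and Gapdh, H2afz, Mcm7 and Atp5g3 lower in the top tertile in 7 of 7 libraries.

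Immediate early transcription factors, which respond to stimulation within minutes, rose in part. Of 23 listed genes 16 were tested, 4 rose, 0 fell and 15 had a positive sign. Of all tested genes 1.53% rose and 53.1% were positive. Junb ran from 1020 to 3066 CPM in the top tertile (median 1885) and from 896 to 1423 in the bottom tertile (median 999). It was higher in 7 of 7 libraries, most in Dlk1+ replicate 2 and least in Dlk1- replicate 2 (log2 0.76 ± 0.13, limma adjusted p = 0.00192). Jund, another AP-1 subunit, had medians of 2559 and 1408 CPM and was higher in 7 of 7 (0.60 ± 0.12, limma adjusted p = 0.00426). Egr1, a zinc finger factor, had 1440 and 959 CPM and was higher in 6 of 7, all but Dlk1- replicate 2 (0.70 ± 0.13, limma adjusted p = 0.00386). Jun was higher in 6 of 7 (0.33 ± 0.09, limma adjusted p = 0.0403). In depth strata Junb was at 0.30, Egr1 at 0.24, Jund at 0.06 and Jun at -0.05, all with limma adjusted p above the threshold. After thinning, Junb was at 0.80, Egr1 at 0.76, Jund at 0.56 and Jun at 0.37, and all 4 were called. The list's median was 0.25, and -0.03 in the strata, where 7 of 16 were positive.

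Of 27 listed genes that mark hematopoietic stem cells, 20 were tested and 3 rose: Egr1 (given above), Txnip and Hlf. All 20 had a positive sign, with a median of 0.36. Of all tested genes 1.53% rose and 53.1% were positive. Hlf, a stem cell transcription factor, ran from 830 to 1160 CPM in the top tertile (median 922) and from 526 to 847 in the bottom tertile (median 686). All 7 libraries were higher in the top tertile (log2 0.52 ± 0.13, limma adjusted p = 0.0247). Txnip, an inhibitor of thioredoxin known for a role in stem cell quiescence, had medians of 1450 and 1030 CPM and was higher in 7 of 7 (0.50 ± 0.11, limma adjusted p = 0.0135). Not called were the receptor gene Kit, with a log2 fold change of 0.45, and Procr, which encodes the surface marker EPCR, with 0.53.

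In the depth strata 14 of these 20 genes were positive, against 47.9% of all genes tested there. The median was 0.08, and Hlf was at 0.14 and Txnip at -0.02. After thinning Txnip was at 0.45 (limma adjusted p = 0.0468) and Hlf at 0.38 (limma adjusted p = 0.177). The sum of 9 stem cell markers, among them Mecom, Hlf, Procr, Kit and Gata2, was 3723 to 4913 CPM in the top tertile and 2958 to 3761 in the bottom tertile, higher in 7 of 7 libraries, and 0 of the 9 were at 0. The summed markers of the sorted population were thus detected in both tertiles of every library.

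Genes listed as raised in aged stem cells gave 2 calls of 16 tested, both higher, where 1.53% of all tested genes were called higher. Alcam, a cell adhesion molecule (chr16:52248996-52454074, minus strand), ran from 142 to 595 CPM in the top tertile (median 375) and from 72.0 to 255 in the bottom tertile (median 146). It was higher in 6 of 7 libraries, all but Dlk1- replicate 2 (log2 1.30 ± 0.21, limma adjusted p = 0.000765). In depth strata its log2 fold change was 0.51 ± 0.20 (limma adjusted p = 0.697). Jun was the other. Of the list 13 genes were positive and 3 negative. The adhesion receptor Selp was at 0.48, the platelet protein Vwf at -0.11 and the retinal dehydrogenase Aldh1a1 at -0.52, none of them called. The median was 0.24, and -0.02 in the strata.

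Other genes that rose belong to several functions. Pim1, a kinase induced by cytokines, had medians of 1632 and 910 CPM (log2 0.80, limma adjusted p = 0.000765), higher in 6 of 7 libraries. Igf1r, the receptor of insulin-like growth factor 1, had 714 and 463 CPM and was higher in 7 of 7 (log2 0.69). Gimap6, a GTPase of blood cells, ran from 163 to 308 CPM in the top tertile and from 83.6 to 150 in the bottom tertile, so the tertiles did not overlap (log2 1.00, limma adjusted p = 0.0101). Klf9 (log2 0.89) and Zbtb20 (0.50), both zinc finger repressors, Mafg (0.88), a partner of Nrf2, Clk1 (0.83), a splicing kinase, and Kmt2a (0.65), a histone methyltransferase needed by stem cells, were each higher in 7 of 7. So were Tspan13 (0.73) and the noncoding RNA Gm19590 (0.72). Prrc2c (0.77), Vmp1 (0.71) and Aplp2 (0.76) were also called. In depth strata all of these lay between 0.05 for Zbtb20 and 0.60 for Mafg.

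By log2 fold change the falls of largest size were at cell cycle genes, Top2a, Smc2, Dut, Mcm7 and H2afz, while by p-value Gapdh came first. The filter for tested genes asked for a level in 7 sums, which a gene could reach through the bottom tertile alone. Top2a, Smc2, Dut and Mcm7 had medians of 34.1, 54.4, 59.0 and 94.9 CPM in the top tertile. In the bottom tertile these were 267, 209, 181 and 215. These 4 were thus tested mainly through the bottom tertile, which favours large falls among them and in the list medians below. Of 4 S phase genes tested, of 23 listed, 2 fell and 4 had a negative sign, with a median of -1.19. Of all tested genes 1.26% fell. Mcm7, part of the replicative helicase, ran from 0 to 136 CPM in the top tertile (median 94.9) and from 163 to 376 in the bottom tertile (median 215), so the tertiles did not overlap (log2 -1.22 ± 0.30, limma adjusted p = 0.0243). Dut, which keeps uracil out of DNA, had medians of 59.0 and 181 CPM and was lower in 7 of 7 libraries (-1.28 ± 0.30, limma adjusted p = 0.0165). Mcm6 was at -1.15 and the polymerase clamp Pcna at -0.37, neither called.

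Of 5 genes of G2 and mitosis tested, of 23 listed, 2 fell and 5 were negative, with a median of -1.004. Over all tested genes 1.26% fell. The histone variant H2afz ran from 185 to 759 CPM in the top tertile (median 304) and from 440 to 929 in the bottom tertile (median 666), lower in 7 of 7 libraries (log2 -1.004 ± 0.19, limma adjusted p = 0.00386). Top2a, the topoisomerase that untangles chromosomes, had medians of 34.1 and 267 CPM and was lower in 6 of 7 (-2.32 ± 0.48, limma adjusted p = 0.00858). In Dlk1- replicate 2 it was at 522 CPM in the top tertile. The condensin subunit Smc2, in neither list, was lower in 7 of 7 (-1.51, limma adjusted p = 0.0135), and so was Pa2g4, a growth regulator of the nucleolus, whose tertiles did not overlap (-0.73, limma adjusted p = 0.0483). Among tubulins, Tuba1a (-0.95) and Tubb5 (-0.65) fell and were lower in 6 of 7.

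Markers of cycling cells summed to more in the bottom tertile. The sum of Mki67, Top2a, Ccnb1 and Cdk1 was 274 to 1028 CPM in the bottom tertile (median 796) and 0 to 1352 in the top tertile (median 105), higher in the top tertile in 1 of 7 libraries, Dlk1- replicate 2. There 2 of 11 cells of the top tertile held all 57 UMIs of these markers, 32 of them in 1 cell. Over the libraries 45 of 162 cells of the bottom and 17 of 162 of the top tertile had a UMI of a cycling marker, without thinning, so that the difference in depth bears on these counts. For H2afz and Tuba1a most of the difference lay between the bottom and the middle tertile. H2afz had a log2 fold change of -1.03 from bottom to middle and of 0.06 from middle to top, and Tuba1a of -0.96 and 0.00. For Gapdh the steps were -0.16 and -0.50, and for Rpl31 0.02 and -0.42. These differences between steps were not tested. In depth strata the S phase median was -0.07 and the median for G2 and mitosis -0.21, with Mcm7 at -0.04, Dut at -0.13 and H2afz at -0.39. Top2a and Smc2 were not tested in the strata, and neither they nor Mcm7 and Dut after thinning. Thinned, H2afz was at -0.79 (limma adjusted p = 0.0693) and Tuba1a at -0.73 (limma adjusted p = 0.0156). The part of depth in these falls was not tested.

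Nuclear genes of the same respiratory machinery were tested in the same way. Of 85 listed nuclear genes of complexes I to IV and ATP synthase, 35 were tested, 0 rose, 1 fell and 29 had a negative sign. Of all tested genes 1.26% fell and 53.1% were positive, so the share of the list that fell, 1 of 35, is near the background. Summed levels were lower in the top tertile in 7 of 7 libraries for each of the 4 lists. The one called gene was Atp5g3, which encodes subunit c of the ATP synthase rotor (chr2:73908447-73911326, minus strand). It ran from 140 to 237 CPM in the top tertile and from 281 to 356 in the bottom tertile, so the tertiles did not overlap (log2 -0.79 ± 0.19, limma adjusted p = 0.0243).

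By complex, the ATP synthase list had the lowest median. All 15 tested members were negative, with a median of -0.61, among them the catalytic subunits Atp5a1 (-0.35) and Atp5b (-0.61), which were not called. Its sum was 2592 to 4008 CPM in the top tertile and 3659 to 6310 in the bottom tertile. Complex IV, with 9 tested, had a median of -0.32, from -0.58 for Cox7c to 0.25 for Cox7a2l. Complex I had -0.30 over 6 genes, and complexes II and III -0.34 over 5. In depth strata the medians were -0.22 for ATP synthase, -0.12 for complex IV, -0.13 for complex I and -0.51 for complexes II and III, with 0 calls and 10 of 35 genes positive. The adenine nucleotide carrier Slc25a5, which exchanges ADP for ATP across the inner membrane, fell (-0.88, limma adjusted p = 0.0181), and was at -0.19 in the strata.

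Other mitochondrial lists held no called gene. Of 30 genes of import and chaperones 8 were tested, with a median of -0.30, the largest positive value being that of the chaperone Hspa9 (0.64, limma adjusted p = 0.12). The citric acid cycle and fat oxidation had -0.20 over 8 tested genes, and dynamics and mitophagy -0.04 over 6. Only 1 of 63 mitochondrial ribosomal protein genes, Mrpl52 (-0.19), and 0 of 31 genes for upkeep of mitochondrial DNA and RNA were abundant enough to test. The sum of the ribosomal protein genes was lower in the top tertile in 7 of 7 libraries, from 2122 to 3059 CPM against 2891 to 4137. Of 14 antioxidant genes tested only Txnip was called. The median was -0.20, with the thioredoxin Txn1 at -0.58 and glutathione peroxidase Gpx1 at -0.39. In the strata Txn1 was at 0.02 and Gpx1 at -0.10.

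Of 9 glycolytic genes tested 2 fell and 8 had a negative sign, with a median of -0.27 (-0.14 in the strata, 1 of 9 positive). The share of all tested genes that fell was 1.26%. Gapdh ran from 631 to 1415 CPM in the top tertile (median 1004) and from 1334 to 3218 in the bottom tertile (median 1548). All 7 libraries were lower in the top tertile, and Dlk1+ replicate 2 held the highest value of the bottom tertile (log2 -0.68 ± 0.12, limma adjusted p = 0.00192). Gm3839 fell by a like amount (-0.61), but its transcript is 99.1% identical to that of Gapdh over 1232 bases, so the reads of both cannot be assigned with certainty. Gpi1, the second enzyme of glycolysis, had medians of 269 and 432 CPM (-0.69 ± 0.19, limma adjusted p = 0.0429). Pkm and Ldha, of the last steps, were at -0.05 and -0.12.

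Of 71 ribosomal protein genes of the cytosol tested 2 fell, 0 rose and 53 were negative, with a median of -0.09 (-0.05 in the strata). The share that fell, 2 of 71, is near the 1.26% of all tested genes. Rpl31 had medians of 2006 and 2474 CPM (log2 -0.42 ± 0.09, limma adjusted p = 0.0101), and Rps25 1723 and 2089 (-0.40 ± 0.10, limma adjusted p = 0.0243). Ppia, a peptidyl-prolyl isomerase, was lower in 7 of 7 libraries (-0.52, limma adjusted p = 0.0101), and Ubb, a ubiquitin gene, in 6 of 7 (-0.46). The pseudogenes Gm8225 (-0.43) and Rpl7a-ps5 (-0.47) were also called. Tuba1a, Ppia, Ubb and Rpl7a-ps5 have near-identical copies of the same strand, so their counts are less certain. H2afz, Rpl31, Rps25, Mcm7 and Txnip overlap or align with transcripts of the opposite strand. Counts of this latter group are less certain where the counting did not use strand, which is not given in the sources used here.

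**Figure D5:**
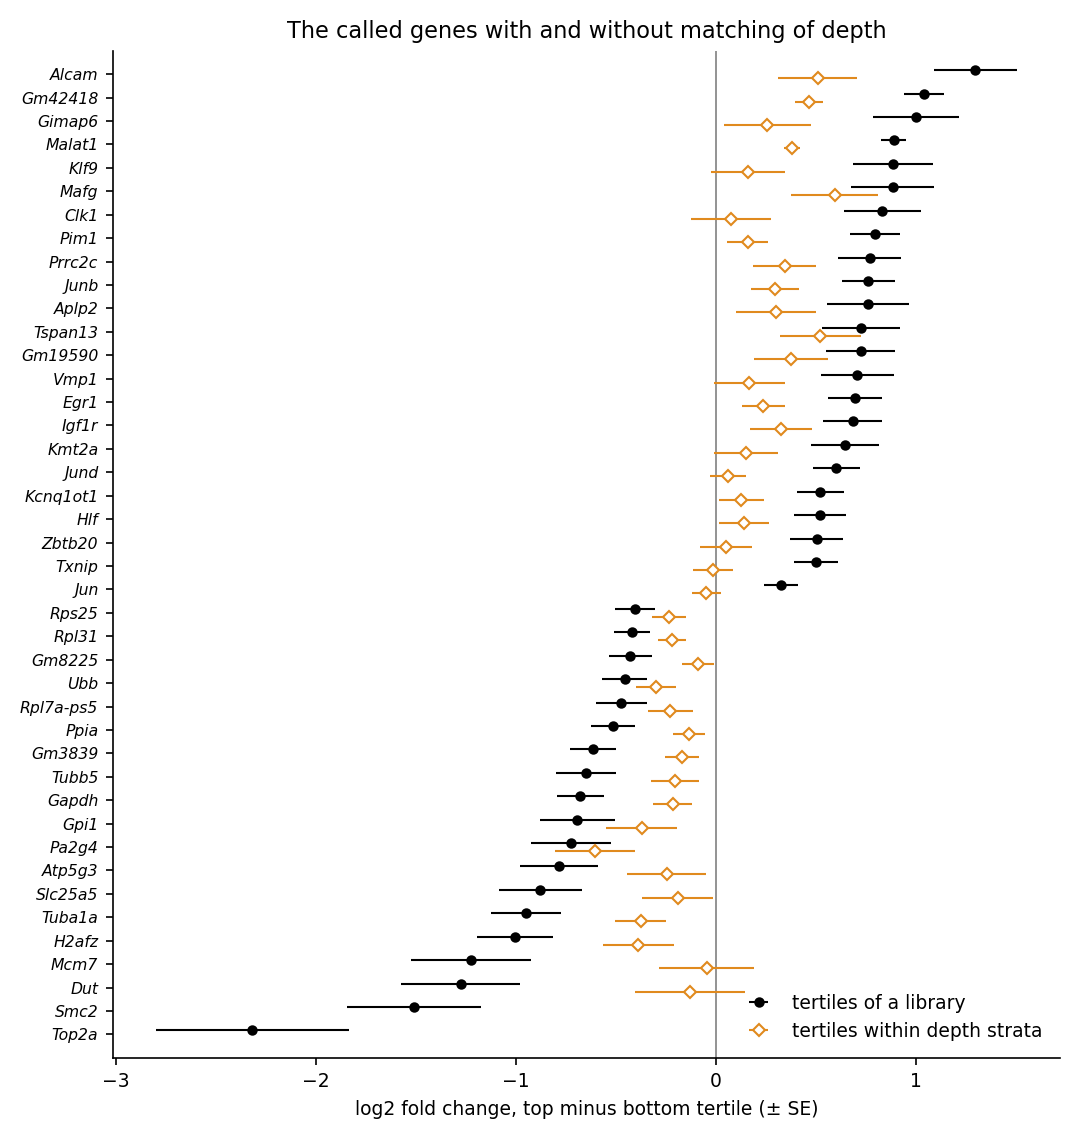
Log2 fold change (horizontal axis, ± SE) of the 42 called genes between the top and bottom tertile of each library (filled circles) and within depth strata (open diamonds; 40 could be tested). All 40 but Txnip and Jun keep their sign, and most diamonds lie closer to 0.

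Stress lists and markers of other cells were looked at beside these. Of the integrated stress response 3 genes were tested and of the apoptosis and p53 list 4, with 0 called and medians of 0.09 and 0.20, Cdkn1a being at 0.10. Of 6 heat shock genes 0 were called. Among defining markers of other lineages the erythroid Alas2 was at 0 in both tertiles, and Cd3e, Cd3d, Trac, Lyz2 and Cdh5, which have no row in the tables used here, were not analysed here. The erythroid markers together summed to 0 to 397 CPM in the top and to 14.4 to 184 in the bottom tertile. They were higher in the top tertile in 3 of 7 libraries. B cell markers summed to at most 58.7 CPM in the top and 45.2 in the bottom tertile. Those of T and natural killer cells reached 36.3 and 84.9, and those of stroma and endothelium 218 and 102. The 5 megakaryocyte markers summed to 94.9 to 258 CPM in the top tertile (median 128) and to 83.6 to 689 in the bottom tertile (median 196), higher in the top tertile in 1 of 7 libraries. The part of these in the results was not tested. Of 7 myeloid markers, the 6 other than Lyz2 summed to 213 to 666 CPM in the top tertile and to 209 to 484 in the bottom tertile of 6 libraries. In the bottom tertile of Dlk1+ replicate 4 they reached 14320 CPM, where 1 cell held 1958 of their 2019 UMIs. Without that cell 17 genes were higher and 17 lower, and 34 of the 42 were called again.

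The satellite-like transcripts, which the score leaves out, were high and variable. Gm10800 (chr2:98666547-98667301, minus strand) ran from 120430 to 462076 CPM in the top tertile and from 88488 to 439046 in the bottom tertile. It was higher in the top tertile in 6 of 7 libraries (log2 0.39 ± 0.11, limma adjusted p = 0.0542). Gm26870 was higher in 5 of 7 (0.26 ± 0.12, limma adjusted p = 0.253). In depth strata they were at 0.10 and 0.01, each higher in 4 of 7. Gm10800 passed the threshold in the same direction under 15 of 36 alternatives, among them thinning (0.61, limma adjusted p = 7.39e-05) and plate 6 alone (0.72, limma adjusted p = 1.47e-09). With both transcripts counted in the score total it was lower in the top tertile (-0.703, limma adjusted p = 0.00306). There Gm26870 was lower too (-0.922, limma adjusted p = 0.000525), so the direction depends on the total used for the score.

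The complexity of the RNA did not differ detectably. After each cell was thinned to 1500 UMIs outside the mitochondrial and satellite-like genes, the median number of genes per cell was 1005 ± 21.1 (SD, n = 7 libraries) in the top tertile and 1004 ± 9.16 in the bottom tertile. The difference was 0.643 ± 15.2 genes, higher in 4 of 7 libraries (two-sided exact sign-flip permutation test, p = 0.891; the smallest possible is 0.0156). Thinning left out 28 cells of the top and 1 of the bottom tertile as too shallow. Without thinning the means were 1552 ± 297 and 1919 ± 342.

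Mitochondrial share did not differ detectably between the Dlk1+ and Dlk1- sorts. The library medians averaged 13.4% ± 3.10 (SD, n = 3) in Dlk1+ and 12.9% ± 1.05 (n = 4) in Dlk1-, a difference of 0.580 percentage points (two-sided exact permutation test, p = 0.743; the smallest possible is 0.0571). On plate 5 the means were 13.5% and 12.4% (n = 2 each), and on plate 6 they were 13.3% (n = 1) and 13.4% (n = 2). Dlk1 itself was too low for the main test across genes. It was at 743, 943 and 1016 CPM in the top tertiles of the Dlk1+ libraries and at 0 to 94.9 in those of the Dlk1- libraries, as the labels give it. In the bottom tertiles it was at 644, 585 and 640 CPM in the Dlk1+ and at 0 to 65.0 in the Dlk1- libraries. Where it could be tested, its log2 fold change was 0.01 in depth strata. It was 0.57 from the bottom to the middle tertile and -0.11 from the middle to the top, none of these called.

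A test of the interaction asked whether the difference between tertiles was itself different in Dlk1+ and Dlk1- libraries. It was called so for 10 of 1503 genes (0.665%), in a fit weighted by counts that was not repeated without weights. Fos, the AP-1 subunit, was higher in the top tertile in 3 of 3 Dlk1+ libraries, by 0.81 to 1.54 on the log2 scale, and in 2 of 4 Dlk1- libraries, where the range was -0.68 to 0.15. The interaction was 0.99 ± 0.18 (limma adjusted p = 0.00176), and 1.03 without Dlk1+ replicate 1 (limma adjusted p = 0.025).

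The other 9 genes went the opposite way. Gm29055, an intronic transcript (chr1:86774819-86776528, plus strand), was higher in the top tertile in 4 of 4 Dlk1- libraries, by 0.33 to 1.39, and in 1 of 3 Dlk1+ libraries (interaction -1.67 ± 0.20, limma adjusted p = 1.74e-06). By library the Dlk1+ differences were -1.07 in replicate 1, 0.86 in replicate 2 and -0.82 in replicate 4. The SE rests on count weights and on variances pooled over genes, and does not measure the spread of these 3 libraries alone. Gm29055 and Gm21833, Gm37954, Gm37158, A430073D23Rik, Gm17555, Gm21750, Gm22993 and Gm37746 are transcripts of unknown role. Several align with each other, Gm21833 and Gm37158 at 97.0% identity over 1500 bases, so their reads may be shared. Without Dlk1+ replicate 1, calls fell to 2, Gm29055 and Fos.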

How the data were processed

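The deposited values are estimated counts of transcripts per gene symbol and cell barcode, 1 table a library, which the authors did not scale for depth; reads were aligned with BWA 0.6.2-r126 to mm10 per the submitters' processing notes. Whether counting used strand is not given in the sources used here. Each value fits the usual correction for UMI collisions over 4096 identifiers, and whole UMI counts recovered from it were used for thinning. The unit of the deposited tables could not be checked automatically, so the edgeR quasi-likelihood test that had been planned, and DESeq2, were not run and limma-voom took their place.

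Transcripts of the 324 cells of the top and bottom tertiles were summed per library and tertile and rounded. The 7 libraries used held 100707 to 514864 transcripts each in all their cells, and the shares' binomial errors cover counting error only. Barcodes numbered 1 to 96 were taken in Dlk1+ and 97 to 192 in Dlk1- tables, less 10 in Dlk1+. No barcode number was shared between the groups (0), while 21 held a cell in every Dlk1+ and 29 in every Dlk1- library. Doublets were not called, but 4 cells with very many transcripts were left out as an alternative. Genes needed the CPM of a count of 10 at the median size in 7 sums and a total of 15. As each tertile gave 7 sums, a gene could pass through the tertile where it was high. Sizes left out mitochondrial and satellite-like transcripts and were adjusted by the trimmed mean of M-values (TMM). The fit was limma 3.58.1 (R 4.3.3) with library as block, threshold 0.05, tested on simulated data.

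After the data were seen, Gm10800 and Gm26870 were left out of the mean-variance trend and variance prior, and tested with those of the other genes. With them in, the lowest point of the fitted trend was 0.007, and -0.091 in depth strata, where a standard deviation cannot be negative. Other measures used exact permutation tests (scipy 1.17.1).

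Named genes were called genes with the same sign in every library, at most 12 a direction by adjusted p, then called members of each list, at most 4, or its 2 most abundant, and every mitochondrial gene; some list members are not reported here, and other called genes and list members were named after their values were seen. The members and lists were chosen with earlier results of these data known. Copies were sought with blastn 2.17.0 in GENCODE mouse release 21, which held 17407 of 18174 symbols (95.8%). Of genes aligning with a mitochondrial transcript 1 was in the tables, Gm4076, with 6 transcripts. Alternatives covered filters, scaling, cell cuts, depth, split, plate, sort and each library left out. The numbers of the labels tie no replicate of 1 group to 1 of the other, so no pairing was assumed.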

Additional observations from a re-analysis of the deposited data

Results flagged for a closer look

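In 31 sets of per-library differences, 3 single libraries lay far from the other 6, where chance alone marks about 1 in 20 sets. For Gm19590, Dlk1+ replicate 2 had a log2 difference between tertiles of 1.414, against 0.560 to 0.834 elsewhere. For Mcm7 the same library was at -3.751, against -1.31 to -0.493, with 0 CPM in its top tertile of 8 cells. For Dlk1, Dlk1- replicate 2 was at 3.551, against -1.002 to 0.683, from 94.9 CPM in a top tertile of 11 cells and 0 in the bottom tertile.

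The difference between tertiles differed between Dlk1+ and Dlk1- libraries by the interaction test for 10 genes. On the log2 scale, Dlk1+ minus Dlk1-, it was 0.988 for Fos, -1.67 for Gm29055, -1.867 for Gm21833, -2.154 for Gm37954, -1.857 for Gm37158, -1.726 for A430073D23Rik, -2.023 for Gm17555, -1.49 for Gm21750, -2.259 for Gm22993 and -1.684 for Gm37746. Of these, 2 were called without Dlk1+ replicate 1.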

How the results depend on the processing

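The 23 genes higher and 19 lower in the top tertile changed in number with several settings. Within depth strata the counts were 2 and 0, and there 1 and 0 with unweighted limma, or 4 and 0 with the satellite-like transcripts in the variance trend. With all libraries fitted with no replicate block (0 and 0 in limma, with 227 genes at an unadjusted p below 0.05) every call was lost. Differences between libraries stay in the residual of that fit, and their part in the loss was not tested. The counts were 15 and 7 with the satellite-like transcripts in the trend, and 8 and 7 with unweighted limma. No filter beyond a total of 15 gave 15 and 38. Thinning to 2000 UMIs, mitochondrial and satellite-like ones included, gave 16 and 7 of 484 tested genes. Satellite-like transcripts in the score total gave 15 and 18, and mitochondrial ribosomal RNA out of the score 39 and 28. Plate 5 gave 1 and 0 of 878 tested genes, and plate 6 gave 20 and 11 of 2250. There were 15 and 18 in Dlk1+, 13 and 5 in Dlk1- libraries, and 7 and 2 for the top against the middle tertile. Leaving out each library gave 10 to 42 higher and 6 to 35 lower, the fewest without Dlk1- replicate 1, when 16 of the 42 were called again, and the most without Dlk1- replicate 2. Without Dlk1- replicate 3, 18 and 11 were called. Interaction calls, 10, ranged from 2 to 17 as libraries were left out.

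Of the 42, 38 of 40 tested kept their sign in the strata, 39 of 42 from the bottom to the middle tertile and 35 of 38 from the middle to the top. Signs turned for Txnip (-0.016 in both weighted fits) and Jun (-0.05) in the strata, Clk1 in the unweighted strata (-0.175), Kcnq1ot1 (-0.037), Rpl31 (0.018), Rpl7a-ps5 (0.01) and Gm26870 (-0.08) from the bottom to the middle tertile, and H2afz (0.059), Tubb5 (0.20) and Tuba1a (0.00) from the middle to the top. With satellite-like transcripts in the score total, which lowers the score of cells rich in them, Gm10800 was at -0.703 and Gm26870 at -0.922. The latter was at -0.102 without mitochondrial ribosomal RNA in the score and at -0.001 on plate 5. Genes per cell differed by -0.429 at 1000 UMIs, -0.714 at 2500 UMIs and -4.07 for a split at the median, and by -2.75 to 5.25 as libraries were left out. The difference in share between sorts was -0.199 with satellite-like transcripts in the total and -0.995 to 2.1 as libraries were left out, negative without Dlk1+ replicate 1. With the 3 replicate numbers as a replicate block it was 0.917 percentage points (exact permutation test, p = 0.75; the smallest possible is 0.25). The causes of these changes were not tested. Small libraries limit precision: Dlk1+ replicate 2 had 8 cells a tertile. Neither edgeR nor DESeq2 was run.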

Other observations

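Interferon-inducible genes were not described above. Of 25 listed, 6 were tested and 0 were called, with a median log2 fold change of 0.14 between the top and bottom tertile and 0.02 in depth strata. Gbp7, a guanylate-binding protein, had medians of 295 and 202 CPM and Ifi203, a nuclear DNA-binding protein, of 295 and 184, each higher in the top tertile in 7 of 7 libraries, with log2 fold changes of 0.61 and 0.55. Ifitm3, a membrane protein that blocks virus entry, was at -0.17.

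Of the megakaryocyte list 7 genes were tested and 0 were called, with a median of -0.09 and the tetraspanin Cd9 at -0.40. The 5 defining megakaryocyte markers summed to less in the top tertile in 6 of 7 libraries, with medians of 128 and 196 CPM, a difference that was not tested. Of the quiescence list 6 were tested and Txnip alone was called. The cyclin Ccnd2 was at 0.45 there, and at 0.34 in depth strata. Of 11 cytoskeletal and surface genes of high level 9 were negative and Tubb5 alone was called, with beta-actin, Actb, at -0.07 and beta-2 microglobulin, B2m, at -0.06. Of 4 imprinted genes tested, of 28 listed, Kcnq1ot1 alone was called. The maternally expressed Meg3 was at 0.35 and the growth factor receptor adaptor Grb10 at 0.38, and in depth strata they were at -0.57 and 0.04.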
